A study of Danio rerio with 18 samples.

Results

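Of the 18 tumours of the series, 6 carried a plasmid with the mitfa promoter in front of BRAF with the V600E change, and 2 of these 6 held transcripts of olig2 well above the others. Those 2, mitfa tumours 1 and 5, are called olig2-high here, and the other 4, mitfa tumours 2, 3, 4 and 6, are called olig2-low. The tumours were chosen by their measured olig2 level: a tumour was olig2-high when olig2 (OLIG2, ENSDARG00000040946) had at least 10 CPM, the count scaled so that all reads in genes of a tumour sum to 1000000. The level was 56.2 CPM in mitfa tumour 1 and 79.6 CPM in mitfa tumour 5, against 0.658, 0.614, 1.27 and 1.13 CPM in mitfa tumours 2, 3, 4 and 6. The lowest value inside the threshold was thus 56.2 CPM and the highest outside it 1.27 CPM, and thresholds of 5 or 20 CPM gave the same 2 tumours. Because olig2 set the groups, its own difference is not a finding, and no test was made of olig2-high against olig2-low: sizes and separation are described over 2 and 4 tumours.

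All 18 tumours grew in adult zebrafish of the Tu strain with a p53-/- background, into which the plasmid had been injected at the 1-cell stage. Such fish are mosaics, and which cells carry the plasmid can differ from fish to fish. The other 12 tumours carried the same BRAF with V600E behind the sox10 promoter, with the same background, and serve below only as a further set of levels. The mitfa promoter is active in pigment cell precursors and melanocytes, and the sox10 promoter in neural crest and in glia. Whole tumours were extracted, so host tissue around the tumour cells is in the libraries, and the labels do not say whether each tumour came from a separate fish. In bulk RNA, fewer cells of a type and less RNA per cell cannot be told apart.

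olig2 encodes a basic helix-loop-helix transcription factor that patterns the ventral spinal cord, where its progenitors give rise to motor neurons and then to oligodendrocytes, the myelin-forming glia of the brain and spinal cord. It works there beside the related factor olig1 and the SOX proteins sox10 and sox9, and oligodendrocytes go on to make myelin basic protein. Pigment cells come from the neural crest, which also uses sox10, while olig2 is not a usual melanocyte gene.

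Reads in genes numbered 15504701 and 19835856 in the olig2-high tumours, 15764102 to 19435364 in the olig2-low tumours and 14973777 to 21191902 in the sox10 tumours. Reads outside annotated genes made up 10.21% and 10.23% of reads in the olig2-high libraries, against 9.47 to 12.8% in the olig2-low libraries. Genes with at least 1 read numbered 21480 and 22502 in the olig2-high tumours and 21947 to 23567 in the olig2-low tumours. The olig2-high tumours were therefore within or close to the olig2-low range in depth and in reads outside genes, and mitfa tumour 1 had the fewest genes detected. Sox10 tumours 9 and 10 were more alike than any other pair of sox10 tumours, with r = 0.990 across genes against at most 0.967, and the labels do not say whether they share material. At this depth a gene with no read in mitfa tumour 1 could still have been present at up to 0.193 CPM (a floor of 3 reads, counting error only).

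The 2 olig2-high tumours shared far more than olig2. Across 17039 genes with a mean of at least 1 CPM over the 6 tumours, their log2 levels correlated with each other at r = 0.893. Pairs of olig2-low tumours gave r = 0.847 to 0.891, and pairs of 1 olig2-high and 1 olig2-low tumour gave 0.738 to 0.806. Every mixed pair therefore lay below every pair within a group. The first principal component of the 6 tumours held 43.4% of the variance and placed the olig2-high tumours at 108 and 112, against -62.1 to -37.2 for the olig2-low tumours. The second, with 23.1%, set mitfa tumour 1 (48.7) apart from mitfa tumour 5 (-46.6). These values are across genes, which are not independent replicates, and all 6 libraries share the same counting.

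Genes were called when both olig2-high tumours lay beyond all 4 olig2-low tumours (separated) and the mean log2(CPM + 0.5) differed by at least 2, which is 4-fold. By that rule 542 of the 17039 genes (3.18%) were higher and 961 (5.64%) were lower in the olig2-high tumours. With a difference of at least 1, which is 2-fold, 1189 (6.98%) were higher and 1790 (10.5%) lower, and separation of any size was met by 2073 genes (12.2%) upward and 2317 (13.6%) downward. The median difference over all 17039 genes was 0.07. The pseudocount of 0.5 CPM makes a log2 difference understate the change of genes near 0. For 133 of the higher and 324 of the lower genes the nearest tumours of the 2 groups were still at least 4-fold apart, so a wide gap was more often met on the lower side. The 2 olig2-high tumours also differed from each other, by 4-fold or more in 94 of the 542 higher genes. Without mitfa tumour 1, which leaves a single olig2-high tumour to lie beyond the others, 1007 genes were higher.

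**Figure D1:**
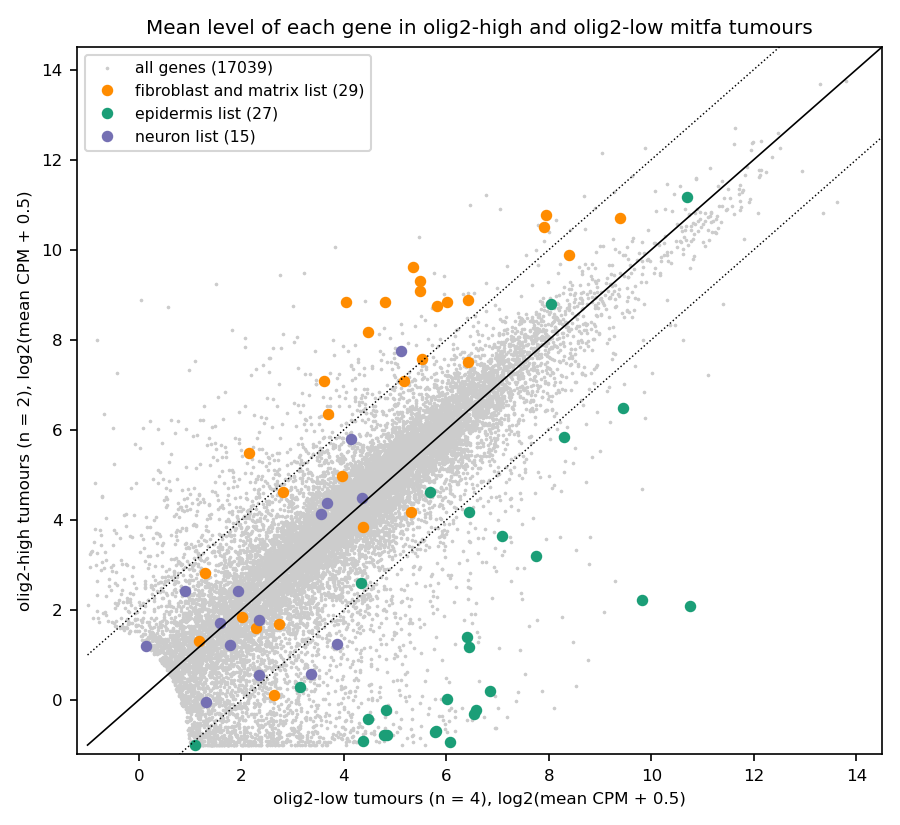
Mean level of each gene in the 2 olig2-high tumours (vertical axis) and the 4 olig2-low tumours (horizontal axis), as log2(mean CPM + 0.5), for the 17039 genes with a mean of at least 1 CPM. The solid line marks equal levels and the dotted lines 4-fold; 21 of the 27 epidermis genes (green) were separated and lower, 13 of the 29 fibroblast and matrix genes (orange) were separated and higher, and the 15 neuron genes (purple) lie on both sides of the line.

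Some nerve and glial genes that sox10 tumours carry were higher in the olig2-high tumours, and others were not. ELAVL3, olig1, mbpa and S100B did not separate the groups, while tubb5, mapta, l1cama, nes and SOX9 (ENSDARG00000003293) were higher in both olig2-high tumours. Other nerve and glial genes were lower in both: SNAP25 (ENSDARG00000058117), atp1a3b, ERBB3, FA2H and SOX3, at log2 differences of -3.21 to -1.38. The NCAM1 copy ENSDARG00000007220 was higher and the copy ENSDARG00000056181 lower, at 2.35 and -1.88. The mean olig2 level in the olig2-high tumours exceeded that of the olig2-low tumours by 67.0 CPM, which is 16.6% of the sox10 median of 404 CPM. ELAVL3, an RNA-binding protein of neurons, was at 0.452 and 0.807 CPM in the olig2-high tumours, against 0.439, 0.391, 2.54 and 0.309 CPM in the olig2-low tumours, while its sox10 median was 435 CPM. The groups overlapped, and the highest of the 6 mitfa tumours was olig2-low. olig1 had no read in either olig2-high tumour and at most 0.110 CPM in an olig2-low tumour, with a sox10 median of 2.81 CPM. mbpa, which encodes myelin basic protein, was at 5.68 and 21.7 CPM in the olig2-high tumours, against 16.2, 5.47, 85.1 and 16.3 CPM in the olig2-low tumours, with a sox10 median of 1814 CPM. S100B, a calcium-binding protein of glia, was at 2.52 and 8.72 CPM in the olig2-high tumours, against 1.95 to 4.68 CPM in the olig2-low tumours, with a sox10 median of 1406 CPM. None of these 4 genes was separated between the groups, and each stayed below the lowest sox10 tumour in both olig2-high tumours.

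SOX10 itself, the factor of neural crest, pigment cells and glia, did not separate the groups: 427 and 491 CPM in the olig2-high tumours, against 374, 541, 659 and 269 CPM in the olig2-low tumours. MITF (ENSDARG00000003732), the master factor of melanocytes, was at 132 and 185 CPM in the olig2-high tumours, against 142 to 190 CPM in the olig2-low tumours, and at a median of 1.72 CPM in sox10 tumours. By this gene both olig2-high tumours were like the other mitfa tumours and unlike every sox10 tumour, whose highest value was 8.94 CPM. The zebrafish gene BRAF overlapped as well, at 7.03 and 11.7 CPM in the olig2-high tumours, against 4.58 to 24.6 CPM in the olig2-low tumours.

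Most lists of marker genes for neural tissue held members in both directions, some of them at shares near those of all genes. Shares of members are set beside those of all 17039 genes, of which 6.98% were separated and at least 2-fold higher and 10.5% lower. As all lists were chosen with earlier results of these data known, the shares here and below describe the lists and are not a test. Among 9 measured factors of the oligodendrocyte lineage, 2 (22.2%) were separated and at least 2-fold higher and 0 lower, and the list's median log2 difference was 0.06. One was SOX9 (ENSDARG00000003293), a factor of glia, cartilage and neural crest, at 13.7 and 10.8 CPM in the olig2-high tumours, against 2.25, 2.12, 5.14 and 1.03 CPM in the olig2-low tumours, with a sox10 median of 250 CPM. The other was ZEB2 (ENSDARG00000078416), a zinc finger factor, at 3.68 and 34.1 CPM in the olig2-high tumours, against 0.987, 2.40, 1.40 and 0.257 CPM in the olig2-low tumours. Of 12 oligodendrocyte precursor genes 1 was higher and 1 lower (8.33% each, median -0.29), which is near the shares of all genes. Of 19 central myelin genes 3 (15.8%) were higher and 1 (5.26%) lower (median 0.27), the lower share being under that of all genes. Leaving out 1 tumour moved the precursor counts to 2 higher without mitfa tumour 1, 4, 5 or 6, and to 2 lower without mitfa tumour 1, 2 or 3 and 3 lower without mitfa tumour 5. The lower count of central myelin was 3 without mitfa tumour 1 and 2 without mitfa tumour 5 or 6. The higher central myelin gene with the largest difference was GPR37, a receptor of maturing oligodendrocytes. It was at 21.3 and 182 CPM in the olig2-high tumours, against 9.10, 0.0558, 3.43 and 9.93 CPM in the olig2-low tumours. Its sox10 median was 10.4 CPM, so both olig2-high tumours were above the typical sox10 tumour for this gene. The lower central myelin gene was FA2H. It was at 4.5 and 4.2 CPM in the olig2-high tumours, against 6.07 to 21.8 CPM in the olig2-low tumours, with a sox10 median of 341 CPM.

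Glial and neuronal lists split in both directions. Of 20 radial glia and astroglia genes 3 (15%) were higher, which were 5 without mitfa tumour 1, and 5 (25%) were lower, which were 8 without mitfa tumour 5. GFAP, the intermediate filament of astroglia, was at 77.6 and 5.19 CPM in the olig2-high tumours, against 2.41, 2.46, 2.03 and 1.96 CPM in the olig2-low tumours, a log2 difference of 2.96. The difference rested mostly on mitfa tumour 1: without it the difference was 1.07. SOX2, a factor of neural progenitors, was at 277 and 25.8 CPM in the olig2-high tumours, against 6.75, 48.8, 16.3 and 4.48 CPM in the olig2-low tumours, so that mitfa tumour 1 stood alone and the groups overlapped. SOX3 of the same list was lower, with a log2 difference of -3.21. SOX3 was at 0.32 and 0.504 CPM in the olig2-high tumours, against 3.52 to 19.5 CPM in the olig2-low tumours. The VIM copy ENSDARG00000044501, described below, was a lower member too. Of 15 neuron genes 4 (26.7%) were higher and 3 (20%) lower, with a median of 0.21. Without mitfa tumour 5 these were 2 and 5, and without mitfa tumour 3 the lower count was also 5. The summed level of the neuron list was 360 and 349 CPM in the olig2-high tumours, against 130, 136, 191 and 140 CPM in the olig2-low tumours, and at least 1212 CPM in sox10 tumours. The sums did not overlap, and all 6 mitfa tumours were below every sox10 tumour. The mean log2 level of the neuron members did overlap, at 2.37 and 2.68 in the olig2-high tumours, against 1.94 to 2.56 in the olig2-low tumours. Here tubb5, a tubulin, was at 278 and 149 CPM in the olig2-high tumours, against 9.82 to 61.1 CPM in the olig2-low tumours, which made it a large part of the olig2-high sums; its sox10 median was 291 CPM. mapta, a microtubule-binding protein of axons, was at 30.4 and 80.1 CPM in the olig2-high tumours, against 9.57 to 24.6 CPM in the olig2-low tumours, with a sox10 median of 146 CPM. SNAP25 (ENSDARG00000058117), a protein of synaptic release, was lower, at 1.74 and 2.02 CPM in the olig2-high tumours, against 8.12 to 25.7 CPM in the olig2-low tumours. Of 16 Schwann cell genes, which mark the myelinating glia of peripheral nerve, 5 (31.2%) were higher and 2 (12.5%) lower (median 0.65), with 9 higher without mitfa tumour 1 and 4 lower without mitfa tumour 5. Their summed level was 353 and 423 CPM in the olig2-high tumours, against 260, 90.1, 271 and 190 CPM in the olig2-low tumours, and at least 2196 CPM in sox10 tumours. These sums did not overlap either, and again all 6 mitfa tumours were below every sox10 tumour. The mean log2 level of the Schwann cell members overlapped, at 2.83 and 3.02 in the olig2-high tumours, against 1.40 to 3.17 in the olig2-low tumours. The widest difference in the list was that of l1cama, an adhesion molecule of axons and Schwann cells. It was at 48.7 and 10.7 CPM in the olig2-high tumours, against 0.168 to 1.33 CPM in the olig2-low tumours, with a sox10 median of 92.2 CPM. ERBB3, the neuregulin receptor of Schwann cell precursors, was lower, at 1.68 and 1.86 CPM in the olig2-high tumours, against 18.2, 4.30, 62.5 and 3.96 CPM in the olig2-low tumours.

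One gene of synaptic transmission stood out. SLC17A7 encodes a vesicular glutamate transporter of excitatory neurons, and it was at 141 and 163 CPM in the olig2-high tumours, against 0.110, 0.0558, 0.698 and 0.103 CPM in the olig2-low tumours. The log2 difference was 7.76, and the 2 olig2-high tumours were close to each other. Its sox10 median was 0.0795 CPM and its sox10 maximum 0.304 CPM, so no sox10 tumour approached this level. It was the 1 higher gene among 6 measured genes of transmitter neurons, of 31 in the table, and 1 of the other 5 was lower. Each is 16.7% of the list, against 6.98% of all genes higher and 10.5% lower, and each share rests on 1 gene. The counts of higher and lower genes were 2 and 3 without mitfa tumour 1. The lower count was 2 without mitfa tumour 2 or 3, and 0 without mitfa tumour 6.

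**Figure D2:**
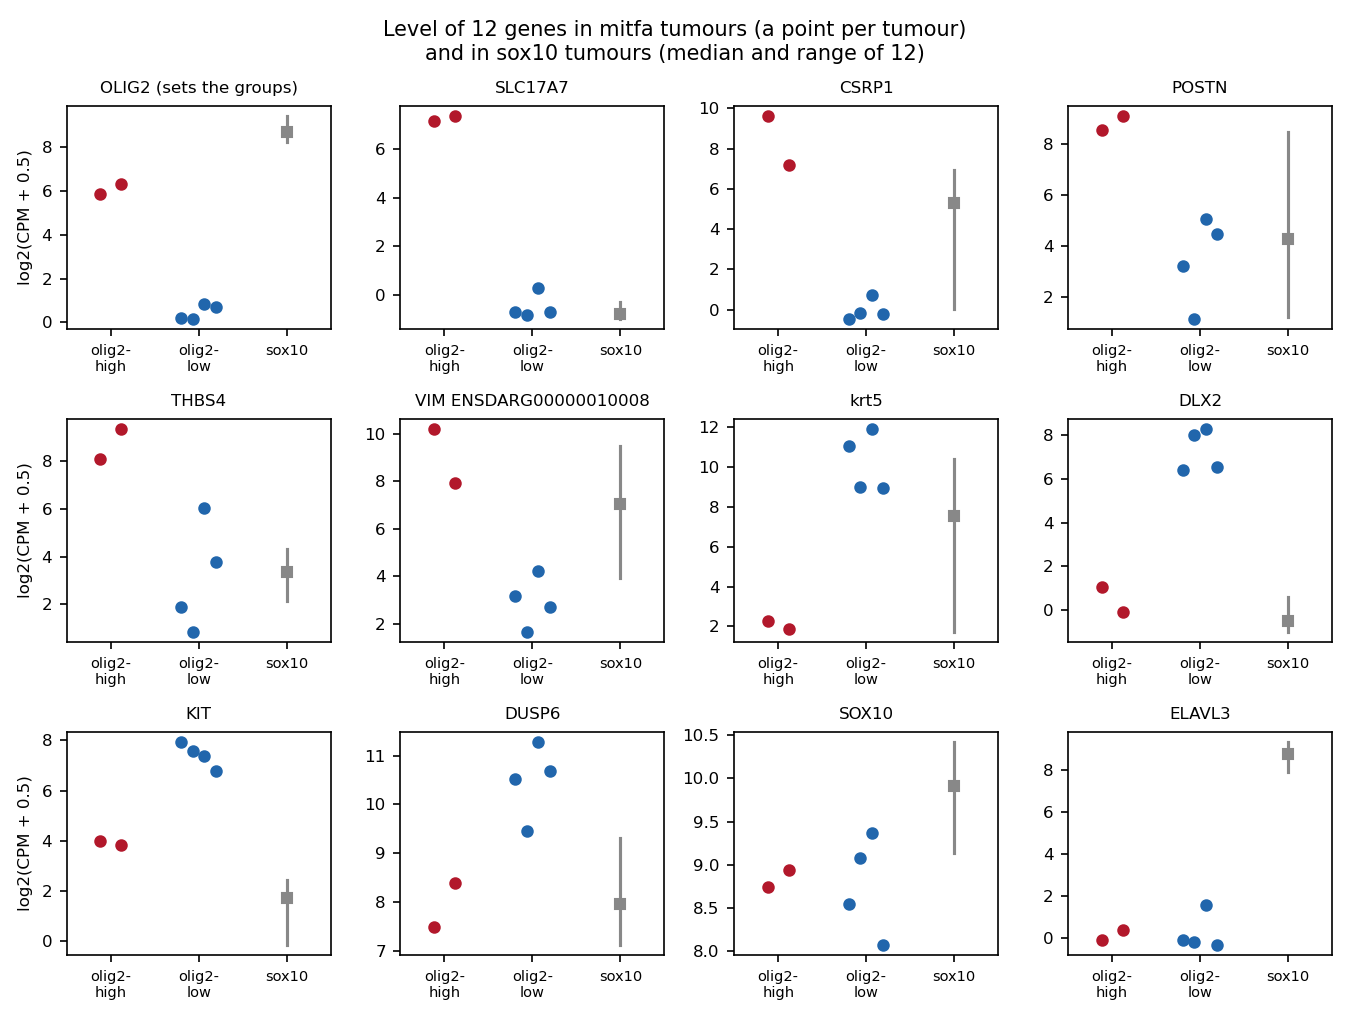
Level of 12 genes as log2(CPM + 0.5) in olig2-high mitfa tumours (red, 2 points, tumour 1 left of tumour 5), olig2-low mitfa tumours (blue, 4 points) and sox10 tumours (grey, median and range of 12). SLC17A7, CSRP1, POSTN, THBS4 and VIM lie higher in both olig2-high tumours, krt5, DLX2, KIT and DUSP6 lie lower in both, and SOX10 and ELAVL3 overlap.

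Of all 542 higher genes the largest difference, 8.81, was that of si:ch211-213o11.11, a gene with a clone name, named here after its values were seen. It was at 245 and 266 CPM in the olig2-high tumours, against 0, 0.0558, 0.127 and 0.103 CPM in the olig2-low tumours. The 12 highest genes with a proper name included SLC17A7 and 5 genes of the cytoskeleton or the matrix, CSRP1, MATN4, VIM, FBN3 and THBS4. The first was CSRP1 (ENSDARG00000030980), a LIM-domain protein of smooth muscle and fibroblast cytoskeleton, at 790 and 147 CPM in the olig2-high tumours, against 0.219, 0.391, 1.14 and 0.360 CPM in the olig2-low tumours, a log2 difference of 8.45. MATN4, a matrilin of cartilage and tendon matrix, was at 97.2 and 273 CPM in the olig2-high tumours, against 0.223 to 2.98 CPM in the olig2-low tumours. FBN3, a fibrillin of matrix microfibrils, was at 109 and 414 CPM in the olig2-high tumours, against 1.48 to 7.05 CPM in the olig2-low tumours. For both matrix genes mitfa tumour 5 had the higher level, whereas CSRP1 was higher in mitfa tumour 1. VIM is the intermediate filament vimentin of mesenchymal cells, and zebrafish has a pair of copies that differed in opposite directions. Copy ENSDARG00000010008 was at 1185 and 240 CPM in the olig2-high tumours, against 8.45, 2.62, 18.02 and 6.07 CPM in the olig2-low tumours. Copy ENSDARG00000044501 was at 0.452 and 0.454 CPM in the olig2-high tumours, against 97.8, 1.73, 19.9 and 57.1 CPM in the olig2-low tumours. The other leading genes were SALL1, a zinc finger factor of kidney and limb development, AKAP6, an anchor of protein kinase A, and THBS4, a thrombospondin of tendon and muscle, with map3k7cl, GAREM2, PLEKHH1 and ABHD10, at log2 differences of 5.55 to 5.66.

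Fibroblast and matrix genes were higher where they separated. Of 29 measured members 13 (44.8%) were separated and at least 2-fold higher and 0 lower, against 6.98% of all genes higher. The other 16 overlapped between the groups, and the list's median log2 difference was 2.13. POSTN (ENSDARG00000043806), the matrix protein periostin, was at 369 and 544 CPM in the olig2-high tumours, against 8.61, 1.68, 32.2 and 21.5 CPM in the olig2-low tumours, a log2 difference of 5.36. COL12A1 (ENSDARG00000078322), a fibril-associated collagen, was at 275 and 1282 CPM in the olig2-high tumours, against 16.8, 8.65, 96.8 and 38.3 CPM in the olig2-low tumours. Both copies of FN1 (fibronectin), COL5A1 and COL5A2 (fibril-nucleating collagens), DCN (decorin) and OGN (osteoglycin) had differences of 3.29 to 4.13. SPARC, a matrix protein of fibroblasts and bone, was at 861 and 1024 CPM in the olig2-high tumours, against 178, 68.6, 522 and 580 CPM in the olig2-low tumours. The summed level of the list was 5198 and 17190 CPM in the olig2-high tumours, 2186, 262, 4324 and 2006 CPM in the olig2-low tumours, and 499 to 4417 CPM in sox10 tumours. Both olig2-high sums thus exceeded all 16 other tumours, with mitfa tumour 5 far above mitfa tumour 1. Without mitfa tumour 1, or without mitfa tumour 4, the count of higher members was 20.

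Muscle genes did not separate the groups. Of 29 measured skeletal muscle genes 0 were separated in either direction, and the summed level was 1498 and 29580 CPM in the olig2-high tumours, against 7111, 244, 445 and 7182 CPM in the olig2-low tumours. Mature muscle transcripts were therefore far more abundant in mitfa tumour 5 than in mitfa tumour 1, whose sum lay inside the olig2-low range. With mitfa tumour 5 as the only olig2-high tumour 27 of the 29 were higher. Whether muscle or connective tissue of the host contributed to the matrix genes was not tested.

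Genes of tendon and of muscle progenitors, lists written after the values had been seen, held members that were higher in both olig2-high tumours. Since the values were known when the lists were written, the shares below cannot be read as an excess over all genes. SCX, scleraxis, the factor of tendon progenitors, was at 13.03 and 38.5 CPM in the olig2-high tumours, against 0.439, 0.391, 0.254 and 0.515 CPM in the olig2-low tumours, a log2 difference of 4.68. THBS4 was at 269 and 655 CPM in the olig2-high tumours, against 3.24, 1.28, 65.7 and 12.97 CPM in the olig2-low tumours, and TGFB3, a growth factor of tendon development, had a difference of 3.66. These 3 and COL12A1 were the 4 of 13 measured tendon genes (30.8%) that were separated and at least 2-fold higher. The summed tendon level overlapped, at 762 and 2860 CPM in the olig2-high tumours, against 212, 136, 1056 and 227 CPM in the olig2-low tumours. For muscle progenitors 6 of 14 (42.9%) were higher and 1 lower, against 6.98% and 10.5% of all genes. PAX7, the factor of muscle stem cells and of xanthophore precursors, was at 5.48 and 28.2 CPM in the olig2-high tumours, against 0.603, 0, 0.127 and 1.03 CPM in the olig2-low tumours. PAX3 (ENSDARG00000028348), its relative in neural crest and muscle precursors, was at 17.9 and 5.19 CPM in the olig2-high tumours and at most 0.698 CPM in an olig2-low tumour. The micropeptide gene mymx, which drives myoblast fusion, was at 58.8 and 45.2 CPM in the olig2-high tumours, against 2.08, 0.279, 5.77 and 1.08 CPM in the olig2-low tumours. In contrast with the summed mature muscle level, mymx, PAX3 and PAX7 lay above all olig2-low tumours in mitfa tumour 1 as well as in mitfa tumour 5. PAX7 was lower in mitfa tumour 1 than in mitfa tumour 5, and PAX3 was lower in mitfa tumour 5. PAX7 is also a member of the brain region and xanthophore lists. The receptor fgfr4 of the muscle progenitor list was lower, at 15.5 and 8.12 CPM in the olig2-high tumours, against 199, 784, 471 and 343 CPM in the olig2-low tumours. The summed level of that list was lower in both olig2-high tumours, at 245 and 295 CPM, against 325, 868, 637 and 434 CPM in the olig2-low tumours. Most of the olig2-low sums was fgfr4. Higher members numbered 10 for tendon and 11 for muscle progenitors without mitfa tumour 1.

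Genes known from dedifferentiated melanoma and from the YAP and TEAD growth pathway were compared next, again with lists written after the values had been seen. For this reason their shares describe the lists and cannot be read as an excess over the share of all genes. Dedifferentiated melanoma cells are known for losing pigment genes and gaining mesenchymal and crest-like ones. Of 37 measured genes of that state 15 (40.5%) were higher and 2 (5.41%) lower (median 0.92), against 6.98% and 10.5% of all genes. The lower count was 3 without mitfa tumour 1 or 6, 4 without mitfa tumour 3 and 6 without mitfa tumour 5. INHBB, a subunit of activin, was at 293 and 204 CPM in the olig2-high tumours, against 7.29, 9.21, 10.3 and 3.71 CPM in the olig2-low tumours. The adhesion molecule CDH2, N-cadherin, was at 55.4 and 48.6 CPM in the olig2-high tumours, against 7.40 to 25.4 CPM in the olig2-low tumours. nes, the intermediate filament nestin of progenitor cells, was at 30.6 and 118 CPM in the olig2-high tumours, against 0.932, 0.726, 1.27 and 4.58 CPM in the olig2-low tumours, and its sox10 median was 72.9 CPM. Both FN1 copies and VIM (ENSDARG00000010008) were in the count of 15, so it shares members with the fibroblast and glial lists. The summed level of the dedifferentiated melanoma list was 4833 and 3702 CPM in the olig2-high tumours and 1250 to 1919 CPM in the olig2-low tumours. In sox10 tumours it was 3337 to 6884 CPM, a range that holds both olig2-high sums. Of 18 YAP and TEAD target genes 5 (27.8%) were higher and 2 (11.1%) lower (median 0.16). CCN2, a secreted matrix-binding protein, was at 1980 and 149 CPM in the olig2-high tumours, against 19.5, 4.69, 23.5 and 6.95 CPM in the olig2-low tumours.

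Epidermal genes were lower in both olig2-high tumours in a larger share than the genes of any other list. Of 27 measured members 21 (77.8%) were separated and at least 2-fold lower and 0 higher, against 10.5% of all genes lower, all 21 were at least 4-fold lower, and the median log2 difference was -4.62. krt5, a keratin of the basal layer, was at 4.32 and 3.23 CPM in the olig2-high tumours, against 2115, 504, 3828 and 487 CPM in the olig2-low tumours, a log2 difference of -8.13. krt91 was at 3.999 and 4.34 CPM in the olig2-high tumours, against 1366, 592, 1108 and 527 CPM in the olig2-low tumours. The adhesion molecule epcam was at 1.16 and 0.151 CPM in the olig2-high tumours, against 196, 120, 84.6 and 57.7 CPM in the olig2-low tumours. Of the 27 members, 12 were below 1 CPM in both olig2-high tumours. Members needed a mean of at least 1 CPM over the 6 tumours, so such a member had to exceed 1 CPM in an olig2-low tumour. That count therefore describes the olig2-high level only and adds nothing to the difference between the groups. The junction genes pkp3a (a plakophilin), cldne and cldnb (claudins) and the keratin krt97 were among the 12 lowest named genes, at -7.16 to -6.49.

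A minority of epidermal genes overlapped between the groups. icn, an ictacalcin of fish skin, was at 3001 and 1572 CPM in the olig2-high tumours, against 1773, 2050, 1214 and 1552 CPM in the olig2-low tumours, and TP63 and cdh1 overlapped too. The summed epidermal level was accordingly 3562 and 2358 CPM in the olig2-high tumours, against 8599, 4516, 10100 and 4436 CPM in the olig2-low tumours. Most of the olig2-high sums was icn alone. Without icn the sum was 561 and 786 CPM in the olig2-high tumours, against 6825, 2466, 8887 and 2883 CPM in the olig2-low tumours, and 74.8 to 3495 CPM in sox10 tumours. Without icn the groups were thus further apart, and the olig2-high tumours lay inside the sox10 range. Among 8 genes of ionocytes and mucous cells, other cells of fish skin, 6 (75%) were lower and 0 higher. The mucin muc5.2 was at 0.129 and 0.0504 CPM in the olig2-high tumours, against 23.4, 2.57, 49.4 and 19.5 CPM in the olig2-low tumours. Whether less skin in the dissected piece accompanied these differences was not tested.

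**Figure D3:**
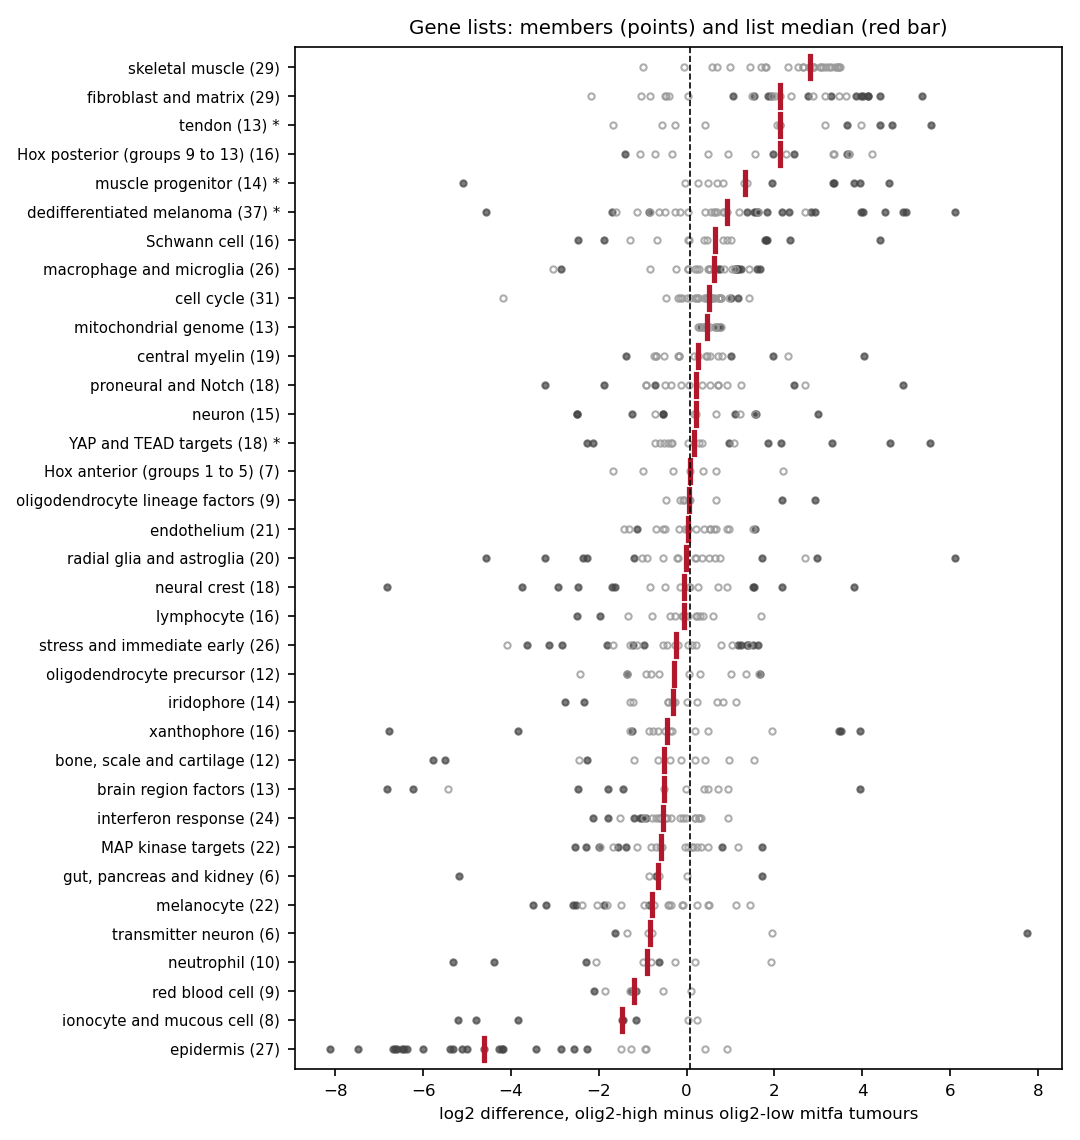
Log2 difference, olig2-high minus olig2-low mitfa tumours, of each measured gene in the lists with at least 6 measured members (number in brackets). Filled points are separated genes, open points overlap, red bars are list medians, the dashed line is the median of all genes (0.07), and an asterisk marks lists written after the values had been seen; medians run from -4.62 for epidermis to 2.81 for skeletal muscle, whose members all overlap.

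Most melanocyte genes overlapped between the groups, and a few were lower in the olig2-high tumours. Of 22 measured melanocyte genes 5 (22.7%) were separated and at least 2-fold lower, against 10.5% of all genes, and 0 higher, and the list median was -0.79. KIT, the receptor that melanocyte precursors need to migrate and survive, was at 15.3 and 13.9 CPM in the olig2-high tumours, against 246, 191, 165 and 109 CPM in the olig2-low tumours, a log2 difference of -3.51. MC1R, the melanocortin receptor, was at 19.9 and 22.8 CPM in the olig2-high tumours, against 197, 81.8, 147 and 98.3 CPM in the olig2-low tumours. In both genes the 2 olig2-high tumours were close to each other and far below the lowest olig2-low tumour. GPR143 and SLC45A2, melanosome membrane proteins, and RAB27A, which moves melanosomes, were also lower, at -3.20, -2.60 and -1.87. The pigment enzyme TYR overlapped, at 47.1 and 259 CPM in the olig2-high tumours, against 644, 448, 444 and 74.7 CPM in the olig2-low tumours. The melanosome matrix gene pmela overlapped as well, at 3535 and 9733 CPM in the olig2-high tumours, against 8025, 677, 2175 and 1789 CPM in the olig2-low tumours. Mitfa tumour 1 was the lower of the olig2-high tumours for GPR143, TYR and pmela, and without mitfa tumour 5 the lower count was 13 of 22, without mitfa tumour 4 it was 8.

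Other pigment and crest genes differed one by one. Of 16 xanthophore genes, which mark yellow pigment cells, 3 were higher and 3 lower (18.8% each, against 6.98% and 10.5% of all genes). slc2a15b, a sugar transporter needed for yellow pigment cells in medaka, was at 5.095 and 1.66 CPM in the olig2-high tumours, against 1374, 385, 242 and 160 CPM in the olig2-low tumours, while slc2a15a was higher, at 15.8 and 20.5 CPM, against 0.391 to 3.55 CPM in the olig2-low tumours. Of 18 neural crest genes 4 (22.2%) were higher and 6 (33.3%) lower. DLX2, a homeobox factor of cranial crest and forebrain, was at 1.55 and 0.454 CPM in the olig2-high tumours, against 83.6, 257, 311 and 91.5 CPM in the olig2-low tumours. EDNRA, an endothelin receptor, was at 10.3 and 8.42 CPM in the olig2-high tumours, against 145, 162, 175 and 71.8 CPM in the olig2-low tumours. CARTPT, a neuropeptide, had a log2 difference of -7.10 and was at 0.839 and 0.454 CPM in the olig2-high tumours, against 152, 148, 42.9 and 586 CPM in the olig2-low tumours. For DLX2 and CARTPT, whose sox10 medians were 0.209 and 0.844 CPM, the olig2-high tumours were far closer to the sox10 tumours than to the olig2-low tumours. Without mitfa tumour 1, 5 xanthophore genes were higher, and without mitfa tumour 5, 6 were lower.

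Target genes of the MAP kinase pathway, which BRAF with V600E drives, mostly overlapped, with a few lower. Of 22 measured targets 5 (22.7%) were lower, against 10.5% of all genes, and 1 (4.55%) higher, against 6.98%, with a median of -0.59. The lower count was 10 without mitfa tumour 5 and 8 without mitfa tumour 6, and the higher count was 3 without mitfa tumour 1 or 5 and 2 without mitfa tumour 2. DUSP6, a phosphatase that ERK activity induces, was at 179 and 334 CPM in the olig2-high tumours, against 1460, 702, 2496 and 1649 CPM in the olig2-low tumours, a log2 difference of -2.55. SPRY2, a feedback inhibitor of the pathway, was at 18.9 and 45.9 CPM in the olig2-high tumours, against 168, 121, 211 and 110 CPM in the olig2-low tumours. Both olig2-high tumours lay below all olig2-low tumours in these feedback genes, and SPRY4, DUSP4 and CCND1 did the same. MYC (ENSDARG00000045695), a growth factor target and transcription factor, went the other way, at 84.6 and 37.4 CPM in the olig2-high tumours, against 12.3 to 21.6 CPM in the olig2-low tumours.

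Immune genes were mixed by cell type. Of 26 macrophage and microglia genes 7 (26.9%) were higher, against 6.98% of all genes, and 1 (3.85%) lower, against 10.5%, with a median of 0.63. P2RY12, a receptor of microglia and other resident macrophages, was at 9.22 and 8.22 CPM in the olig2-high tumours, against 3.40, 2.01, 2.66 and 2.26 CPM in the olig2-low tumours. MPEG1 (ENSDARG00000043093), a pore protein of macrophages, was lower, at 6.26 and 20.4 CPM in the olig2-high tumours, against 72.8, 46.6, 67.2 and 243 CPM in the olig2-low tumours. Without mitfa tumour 1, 11 were higher, without mitfa tumour 3, 4 were, and 2 were lower without mitfa tumour 4 or 5. Of 10 neutrophil and inflammation genes 3 (30%) were lower and 0 higher, with 5 lower without mitfa tumour 3 and 6 without mitfa tumour 5. Among them was il1b, the cytokine interleukin 1 beta, at 3.03 and 2.22 CPM in the olig2-high tumours, against 17.4, 414, 181 and 168 CPM in the olig2-low tumours. By the summed level of that list mitfa tumour 1 was the highest mitfa tumour, at 1489 CPM, and mitfa tumour 5 the lowest, at 210 CPM. The olig2-low sums were 602 to 805 CPM. Of 24 interferon response genes 5 (20.8%) were lower and 0 higher, and 8 were lower without mitfa tumour 5 and 2 without mitfa tumour 6. Red blood cell genes were lower in 4 of 9 (44.4%), which were 2 without mitfa tumour 1 or 2 and 7 without mitfa tumour 5. Endothelial genes gave 1 higher and 1 lower of 21 (4.76% each), with 6 higher without mitfa tumour 1, 4 higher without mitfa tumour 4, and 0 to 4 lower with 1 tumour left out. None of the 13 measured genes of the mitochondrial genome separated by 2-fold, and cell cycle genes gave 2 higher of 31 (6.45%, near the 6.98% of all genes), aurka and RRM1. That count was 1 under TMM or DESeq2 scaling, 4 without mitfa tumour 1 and 5 without mitfa tumour 5 or 6.

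**Figure D4:**
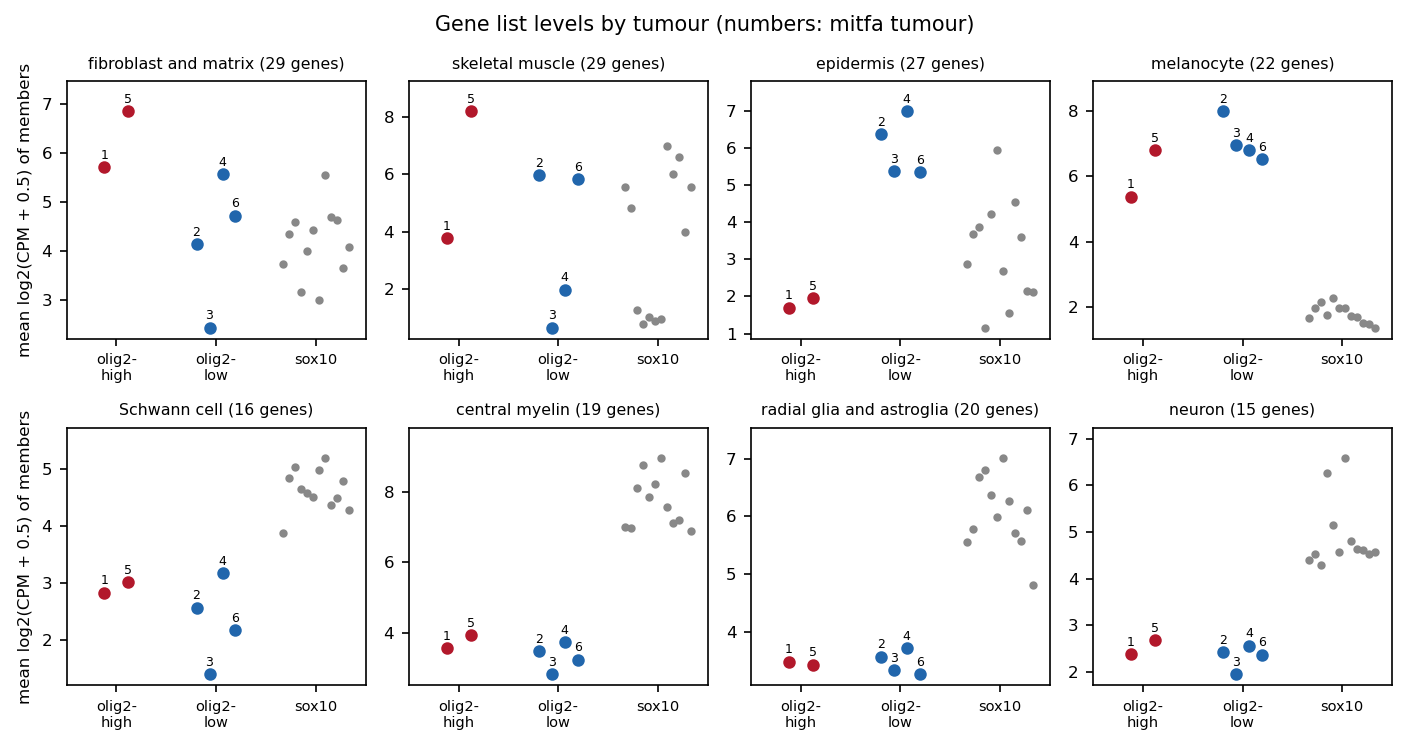
Mean log2(CPM + 0.5) of the measured members of 8 lists in each olig2-high (red), olig2-low (blue) and sox10 (grey) tumour. For fibroblast and matrix genes both olig2-high tumours exceed all others, for epidermis both lie below the 4 olig2-low tumours, skeletal muscle is high in mitfa tumour 5 only among the olig2-high, and for central myelin, radial glia and neuron genes all 6 mitfa tumours lie below the 12 sox10 tumours.

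Hox genes, which record position along the body axis, differed in a few members. Of 16 measured Hox genes of groups 9 to 13 (posterior) 3 (18.8%) were higher, against 6.98% of all genes. Lower was 1 (6.25%), against 10.5% of all genes. Of 7 genes of groups 1 to 5, 0 separated by 2-fold, and 7 genes are too few to read that as a difference from all genes. HOXC9 was at 23.3 and 15.98 CPM in the olig2-high tumours, against 0.603, 6.70, 0 and 1.03 CPM in the olig2-low tumours. HOXD10 was at 36.2 and 18.7 CPM in the olig2-high tumours, against 1.92, 15.4, 1.33 and 7.26 CPM in the olig2-low tumours, so mitfa tumour 3 came close to them. The summed level of the posterior list was 361 and 182 CPM in the olig2-high tumours, against 12.9, 407, 10.7 and 82.0 CPM in the olig2-low tumours. By that sum mitfa tumour 3 was the highest of the 6 mitfa tumours. Without mitfa tumour 3, 9 posterior genes were higher, and without mitfa tumour 5, 6 were. The labels used here do not give the site of each tumour on the body.

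The sox10 tumours, which all carry olig2, give a further set of levels for the called genes. Of the 542 higher genes, 274 had a sox10 median within or below the olig2-low range, and 384 had one below both olig2-high tumours. In 87 the sox10 median was above both olig2-high tumours, as for olig2 itself, and in 146 every sox10 tumour exceeded every olig2-low tumour. For most of the higher genes the typical sox10 tumour thus lay below both olig2-high tumours. Of the 961 lower genes, 682 had a sox10 median above both olig2-high tumours, and in 314 every sox10 tumour lay below every olig2-low tumour. The higher genes were picked for lying high in both olig2-high tumours, and the lower genes for lying low there. That choice itself favours sox10 medians below or above those tumours, and the same counts were not made over all 17039 genes. These counts therefore do not show whether the genes go with olig2. Across the 17039 genes, the median correlation with the sox10 tumours was 0.765 and 0.742 for the olig2-high tumours, against 0.683 to 0.7104 for the olig2-low tumours.

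**Figure D5:**
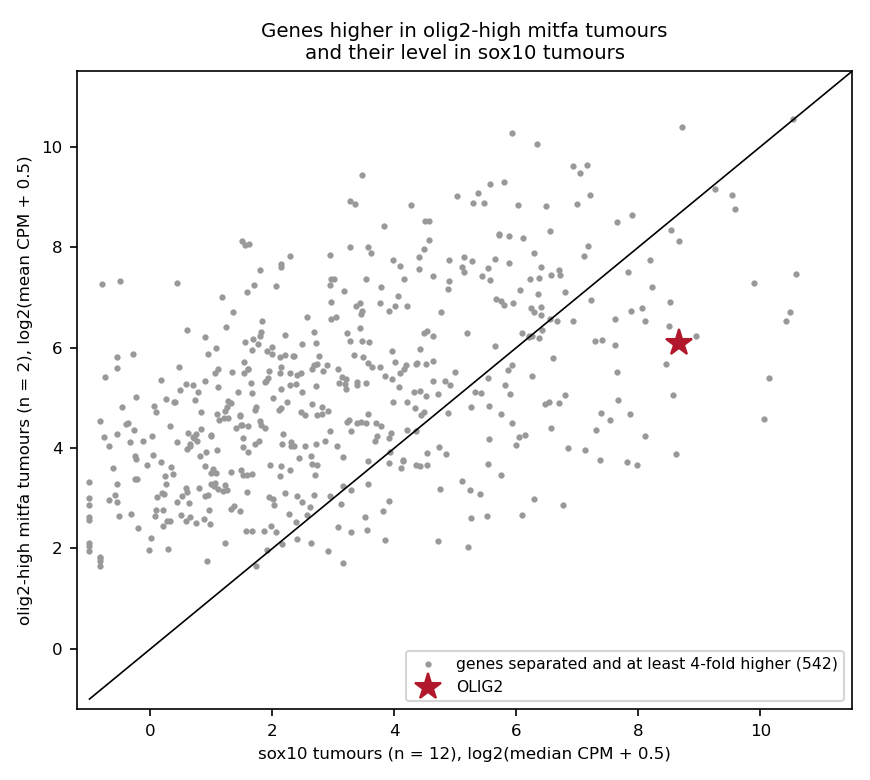
Mean level in the 2 olig2-high tumours (vertical axis) and median level in the 12 sox10 tumours (horizontal axis), as log2(CPM + 0.5), of the 542 genes that were separated and at least 4-fold higher in the olig2-high tumours. OLIG2 (star) lies below the line of equal levels, and most of the other genes, which were picked for a high level on the vertical axis, lie above it.

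The 12 sox10 tumours were not used to form the groups, and their olig2 levels ran from 295 to 675 CPM. For each gene a slope on log2 olig2 was tested there with edgeR's quasi-likelihood test. None of 14232 genes rose or fell at an adjusted p of 0.05 (smallest adjusted p = 0.156), and 1169 genes (8.21%) had an unadjusted p under 0.05, while DESeq2 called 23 rising and 50 falling. With sox10 tumours 9 and 10 summed into 1 library edgeR again called 0 genes, with 1086 at an unadjusted p under 0.05. Of the 542 higher genes 372 could be tested: 21 (5.65%) rose and 28 (7.53%) fell at an unadjusted p under 0.05, against 3.2% rising and 5.02% falling of all genes tested. The median slope of the 372 was 0.07, against 0.01 for all genes tested. Of the genes called lower in the olig2-high tumours 314 could be tested. At the same unadjusted threshold 17 (5.41%) of them rose and 38 (12.1%) fell, and their median slope was -0.24. Falling was thus more frequent among the lower genes than among the higher genes or all genes tested, and rising was also above its share of all genes. Whether these shares differ by more than the spread between tumours was not tested. The range of olig2 among sox10 tumours is narrow beside the step between olig2-high and olig2-low tumours, and on simulated data for this comparison with 13666 genes, the test recovered 0% of genes with a slope of 1 and 32.6% of genes with a slope of 2.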

How the data were processed

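RNA from 18 whole zebrafish tumours was sequenced. The authors deposited 1 table of raw read counts per Ensembl gene, with 4 rows for reads not assigned to a gene, which were left out of totals. FastQC, Trimmomatic, STAR, DESeq2 and the build GRCz10 are named, without versions or roles, per the submitters' processing notes; no source used here names the tool that counted reads or its strand setting. Of 27057 genes 24020 had a name in the reference table; names in capitals are those of the human counterpart. Copies of a gene can share reads, and such genes carry their identifier.

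CPM was the count divided by the tumour's total in genes, times 1000000. Differences are of group means of log2(CPM + 0.5), over genes with a mean of at least 1 CPM in the 6 mitfa tumours. A gene was called when the groups did not overlap and differed at least 4-fold, and members of lists were counted at 2-fold. The rule used olig2 in these tumours, so the contrast has no p-values. The slope on log2 olig2 in the 12 sox10 tumours used edgeR 4.0.16 (TMM factors, filterByExpr, quasi-likelihood test, Benjamini-Hochberg adjustment), with DESeq2 1.42.0 as an alternative, in R 4.3.3, and was tested on simulated data; p-values measure the spread between these tumours.

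The members and lists were chosen with earlier results of these data known. Of 823 list names 757 matched the table, in 36 lists, and 4 further lists were written after values were seen. Named genes are 12 fixed ones, the 12 highest and 12 lowest named called genes with at least 5 CPM in the higher group, and up to 2 separated members of each list in each direction. Other genes were named after their values were seen, to describe a list. CPM is not corrected for gene length, so levels are not compared between genes. Alternatives were other thresholds, scalings, pseudocounts and filters, and leaving out each tumour.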

Additional observations from a re-analysis of the deposited data

Results flagged for a closer look

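Among 97 genes tested for a tumour far from the others of the 4 olig2-low tumours, 6 had one, and chance gives about 1 in 20. ELAVL3 was at 2.54 CPM in mitfa tumour 4, with the other olig2-low tumours at 0.309 to 0.439 CPM. SLC17A7 was at 0.698 CPM in the same tumour, with the others at 0.0558 to 0.110 CPM. olig1 was at 0.110 CPM in mitfa tumour 2, with no read in the others. That level is below the floor of 3 reads, which is 0.165 CPM in mitfa tumour 2, so this flag rests on counting error. cldnb was at 343 CPM in mitfa tumour 2, with the others at 94.98 to 111 CPM. SLC20A1, a phosphate transporter, was at 71.2 CPM in mitfa tumour 2, with the others at 200 to 224 CPM. ptgdsb.2, a prostaglandin D synthase, was at 13.7 CPM in mitfa tumour 3, with the others at 123 to 160 CPM. For cldnb, SLC20A1, ptgdsb.2 and SLC17A7 the groups stayed separated in spite of the far value. The olig2-high pair and the sox10 tumours were not tested in this way, since groups of 2 or of more than 10 are too small or too large for it.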

How the results depend on the processing

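No paired analysis was possible because the labels used here do not link tumours into pairs. The contrast of olig2-high with olig2-low tumours has no test, and the slope uses 1 plasmid group. The 542 higher and 961 lower genes were 357 and 483 with a pseudocount of 2 CPM, 1189 and 1790 at 2-fold, and 2073 and 2317 with separation of any size, where 47.2% of called genes were higher against 36.1%. Leaving out each tumour gave 478 to 1007 higher and 887 to 1290 lower, 12 to 20 higher fibroblast and matrix genes and 21 to 23 lower epidermis genes. Without mitfa tumour 1 the higher share was 51.8%, and 442 of the 542 higher genes remained. TMM factors left 523 of 542 and 958 of 961 genes called. Keeping every gene with 1 read shifted the median of all genes by -0.10. The slope in sox10 tumours gave 0 rising and 0 falling genes without each tumour, with 793 to 1634 genes at an unadjusted p under 0.05. DESeq2 gave 23 and 50. Of 864 values of named genes under alternatives, 61 moved by more than 1 SD of the olig2-low tumours and 0 were counted as reversed. Some genes whose groups overlapped did change sign when 1 tumour was left out. Their log2 differences ran from -0.16 to 0.27 for SOX10, -0.33 to 0.35 for ELAVL3 and -1.66 to 0.19 for mbpa. Of 702 list counts, 131 moved by over 1.5 times. With 2 olig2-high tumours, 1 library can decide a gene, and a gene below 0.193 CPM in mitfa tumour 1 rests on fewer than 3 reads.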

Other observations

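Among genes of brain regions and of bone and cartilage a few were lower in the olig2-high tumours. IRX1, a homeobox factor, was at 0.194 and 0.0504 CPM in the olig2-high tumours, against 6.197, 86.0, 134 and 59.4 CPM in the olig2-low tumours. Of 13 measured brain region factors 5 (38.5%) were lower, against 10.5% of all genes, and 1 (7.69%) higher, against 6.98%. The higher count was 4 without mitfa tumour 1 and 2 without mitfa tumour 5, and the lower count was 3 without mitfa tumour 4 or 6 and with a pseudocount of 2 CPM. COL9A2, a cartilage collagen, was at 2.39 and 0.907 CPM in the olig2-high tumours, against 33.8, 495, 29.2 and 138 CPM in the olig2-low tumours. COL10A1, a collagen of maturing cartilage and of scales and bone in fish, was at 0.580 and 0.202 CPM in the olig2-high tumours, against 58.4, 1.51, 136 and 318 CPM in the olig2-low tumours. Of 12 bone, scale and cartilage genes 3 (25%) were lower and 0 higher, with 6 lower without mitfa tumour 3 and 5 without mitfa tumour 5, and 3 higher without mitfa tumour 1 and 2 without mitfa tumour 4. The purine synthesis gene PAICS, which reflective iridophores express strongly, was at 219 and 87.3 CPM in the olig2-high tumours, against 646, 1560, 613 and 1311 CPM in the olig2-low tumours.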
